A study of Saccharomyces cerevisiae with 14 samples.

Results

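Mitochondrial ribosomal proteins of budding yeast (Saccharomyces cerevisiae) were followed as a family across ARV1 mutant and control cells. The members are the 67 genes whose current symbol consists of MRPL, MRPS, MRP or RSM and a number, chosen by name and not by any measured value. Of these, 65 were measured on both array formats and 64 had enough signal to be tested, among 4287 genes tested in all. By symbol, or for most MRP symbols by an assignment listed by hand, 37 members were counted to the large subunit and 28 to the small. MRP8, which has no family name in the reference table, and MRP35, whose family name bL35m is one of the large subunit, were left out of that assignment.

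The mitochondrial ribosome translates the few messenger RNAs of the mitochondrial genome, most of which encode core subunits of the respiratory chain and the ATP synthase. Nearly all of its proteins are encoded in the nucleus, made in the cytosol and imported, while its ribosomal RNAs come from mitochondrial DNA. Many of them descend from bacterial ribosomal proteins, and others were added in mitochondria. In the family names below, u marks a protein found in all domains of life, b a bacterial one and a leading m one specific to mitochondria, and the next letter gives the large (L) or small (S) subunit. In fermenting yeast the ribosome is needed for respiration and for keeping the mitochondrial genome, but not for growth on glucose.

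The arrays held 5 RNA samples, all from w303 strains of mating type a in mid-logarithmic growth in YEPD, a rich glucose medium. On the Ye6100 format, which spreads a sample over 4 chips, control strain SCY328 (control 1/2) served both ARV1 mutant isolate SCY820 (mutant 1) and ARV1 mutant isolate SCY840 (mutant 2). On the single-chip S98 format, control strain SCY2004 (control 3) was compared with isolate SCY840 again (mutant 3). The ARV1 protein sits in the endoplasmic reticulum and is linked to lipid transport. All groups were grown without any treatment named in the labels, and the labels state neither the kind of ARV1 mutation nor the number of cultures. SCY820 and SCY840 share the ARV1 mutant label, and SCY328 and SCY2004 the control label. Isolate and mutation cannot be told apart within a format. Mutants 2 and 3 are samples of the same isolate, so the mutant samples are not all separate isolates. The p-values measure only how far these samples spread.

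Values are Affymetrix MAS5 signals, in arbitrary units. A log2 ratio is a mutant over the control of its own format, and mutants 1 and 2 share their control. A fitted log2 change is limma's estimate from 3 mutants and 2 controls with the format as a block, given ± its standard error. ARV1 itself had a signal of 33.4 in control 1/2 against 1.0 and 2.2 in mutants 1 and 2, and of 51.8 in control 3 against 6.79 in mutant 3, too low on Ye6100 to be tested. The a-cell receptor gene STE2 had signals between 152.8 and 559.5 and the alpha-cell receptor gene STE3 between 6.8 and 76.5. For the actin gene ACT1 the 5'/3' signal ratio, a measure of RNA integrity and of copying length, was 0.351 in mutant 2 against 0.781 in control 1/2 and 0.764 in mutant 1, and 1.17 in mutant 3 against 1.15 in control 3. Limma called 0 of 4287 genes at an adjusted p under 0.05 (0% called) and 281 at an unadjusted p under 0.05 (6.55%, of which 1.12% lower and 5.44% higher). None of the 64 members passed the adjusted test.

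Most mitochondrial ribosomal protein genes had slightly lower signals in mutants 1 and 3 than in the controls, and in mutant 2 the family was split. In these cultures, fewer cells that express a gene and less RNA per cell cannot be told apart. Over the 64 tested members mutants 1, 2 and 3 had median log2 ratios of -0.37, 0.02 and -0.46, beside 0.24, -0.04 and 0.13 over all genes tested. In mutant 1, 52 of 64 members lay below their control, a position that 36.0% of all genes held. In mutant 3, 57 of 64 members did, against 40.8% of all genes. In mutant 2 the number was 32 of 64, against 51.5% of all genes. The median fitted log2 change was -0.31 over the members and 0.10 over all genes, and 54 of 64 members had a fitted change below 0, as had 1801 of all 4287 genes.

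The shift was small for single genes and spread over the family. In mutant 1, 16 members were at least 1.5-fold lower than the control and 2 at least 1.5-fold higher, where 12.3% and 31.2% of all genes were. In mutant 3 these counts were 21 and 1, beside 7.30% and 23.1% of all genes. In mutant 2 they were 19 and 17, beside 29.1% and 24.3%. At least 2-fold lower were 2 members in mutant 1 (3.12%, beside 4.08% of all genes), 8 in mutant 2 (12.5%, beside 16.8%) and 4 in mutant 3 (6.25%, beside 1.49%). Higher by that much were 0 members in mutant 1 (beside 15.3% of all genes), 5 in mutant 2 (7.81%, beside 12.5%) and 0 in mutant 3 (beside 9.98%). No member was 2-fold away on 1 side in all 3 mutants, as 2.36% of all genes were. The members' interquartile range of log2 ratios was 0.54 in mutant 1 and 0.54 in mutant 3, narrower than the 0.97 and 0.78 over all genes, and 1.27 in mutant 2, beside 1.26 over all genes.

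**Figure D1:**
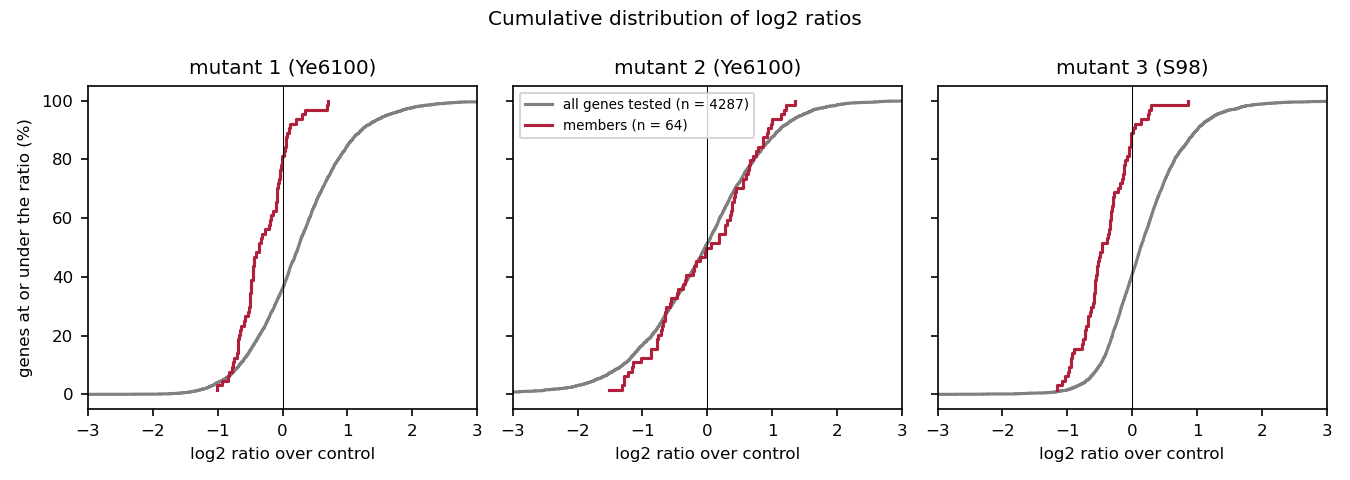
Cumulative share of genes (percent, vertical axis) at or under a given log2 ratio of mutant over control (horizontal axis), for the 64 members in red and all 4287 genes tested in grey, with 1 panel per mutant. The red line lies to the left of the grey line in mutants 1 and 3, with medians of -0.37 and -0.46, and runs beside it in mutant 2.

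Mutants 1 and 3 come from different isolates and were compared with different controls. In both of them 49 of 64 members lay below the control, where 24.5% of all genes did, and 4 lay above it, where 47.6% of all genes did. At least 1.5-fold lower in both were 7 members, beside 2.99% of all genes, and at least 1.5-fold higher in both were 0 members, beside 15.3%. The 7 are MRPL6, MRPL8, MRPL13, MRPL20, MRP1, MRPS17 and RSM27, of which MRPL20 is named because of its values. Across the 64 members the log2 ratios of mutants 1 and 3 had a Pearson correlation of 0.20 and a Spearman correlation of 0.10, where all 4287 genes had 0.59 by both measures. For mutants 2 and 3, samples of the same isolate on different formats, the members had -0.34 and -0.29 and all genes 0.12 and 0.06. These values are descriptions, since genes of the same arrays are not replicates. With mutant 2 included, 27 of 64 members were lower in every mutant (14.6% of all genes) and 3 were higher in every mutant (26.2% of all genes).

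MRPL6, the large subunit protein of family uL6m, had the lowest fitted change of the family. Its signal was 192.5 in control 1/2 against 100.7 and 116.9 in mutants 1 and 2, and 520.1 in control 3 against 265.7 in mutant 3. Each mutant lay below the control of its format, by log2 ratios of -0.93, -0.72 and -0.97. The fitted change was -0.89 ± 0.33, with an unadjusted limma p of 0.0390 and an adjusted p of 0.727. It was the 1 member at an unadjusted p under 0.05, a level that 1.12% of all genes reached in the lower direction.

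MRPL13 and MRPL17 are large subunit proteins of the mitochondrial families mL50 and mL46. MRPL13 had a signal of 332.7 in control 1/2 against 188.5 and 181.7 in mutants 1 and 2, and of 484.6 in control 3 against 282.9 in mutant 3. Its log2 ratios of -0.82, -0.87 and -0.78 were close to each other, with a fitted change of -0.82 ± 0.34. MRPL17 had 83.5 in control 1/2 against 46.5 and 34.1 in mutants 1 and 2, and 347.9 in control 3 against 241.4 in mutant 3. For this gene mutant 2 was the lowest, and the fitted change was -0.84 ± 0.36.

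MRPL8, of the bacterial family bL17m, and MRP1, a small subunit protein related in sequence to superoxide dismutases, followed. MRPL8 had a signal of 225.0 in control 1/2 against 111.6 and 177.9 in mutants 1 and 2, and of 931.2 in control 3 against 484.7 in mutant 3. Mutants 1 and 3 had about the same ratio, -1.01 and -0.94, and mutant 2 stood closer to the control at -0.34, with a fitted change of -0.79 ± 0.39. MRP1 had 436.3 in control 1/2 against 278.8 and 269.1 in mutants 1 and 2, and 744.0 in control 3 against 455.4 in mutant 3. Its 3 log2 ratios lay between -0.71 and -0.65, and the fitted change was -0.69 ± 0.35. MRPL6, MRPL13 and MRP1 were the 3 members at least 1.5-fold lower in every mutant, which 1.42% of all genes were.

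The other members among the 12 lowest had fitted changes between -0.61 and -0.54. MRPL7 (uL5m) had -0.61 ± 0.34, and its signal on Ye6100 was 189.8 in the control against 133.5 and 104.3 in mutants 1 and 2. MRP7, of family bL27m, had -0.56 ± 0.40, and mutant 2 was its lowest sample, with a log2 ratio of -1.15 beside -0.36 and -0.30 in the others. MRPL3, of the mitochondrial family mL44, had -0.54 ± 0.32. On the small subunit MRPS17 (uS17m) had -0.58 ± 0.32 and MRPS9 (uS9m) -0.57 ± 0.36, and MRPS9 was lowest in mutant 3, at a log2 ratio of -0.94. MRP4 (uS2m) had -0.55 ± 0.41, with a signal of 41.6 in control 1/2 and 20.4 in mutant 2, the latter under the signal filter of 25.4. These members were below the control in every mutant. RSM28 (mS46) was not: its log2 ratio was -0.76 and -1.52 on Ye6100 and 0.26 on S98, with a fitted change of -0.54 ± 0.47. Limma's adjusted p ranged from 0.727 to 0.903 over these 12.

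**Figure D2:**
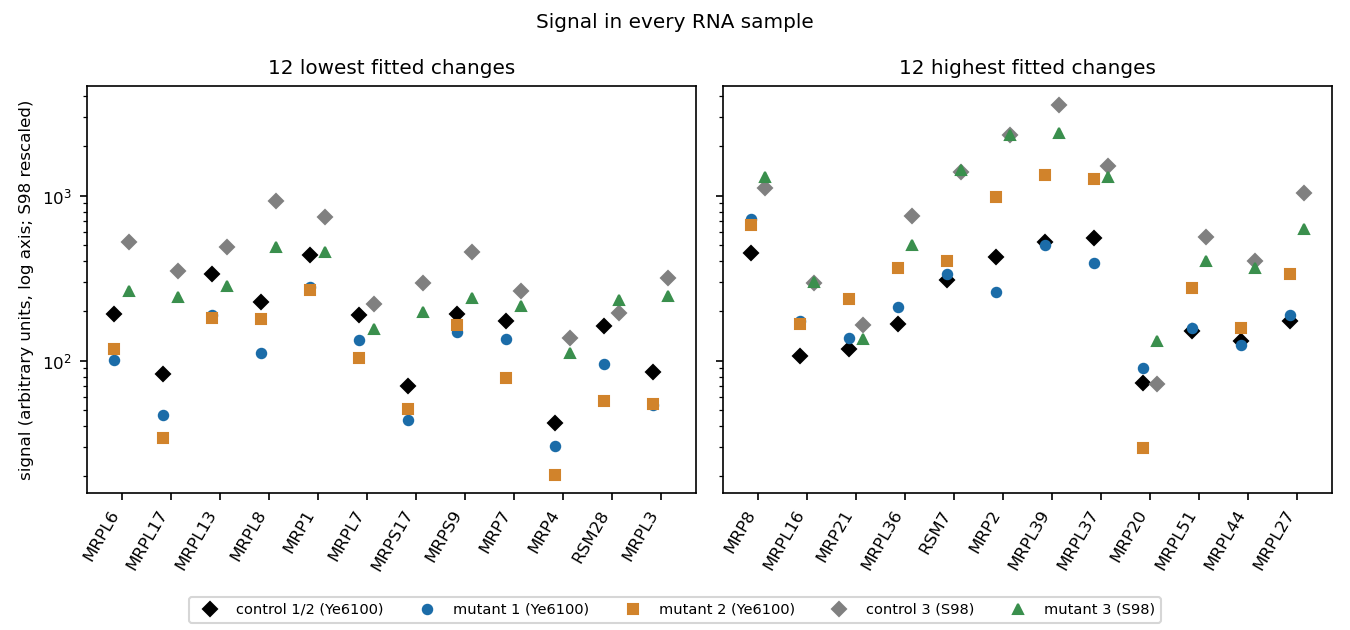
Signal (arbitrary units, log axis) of the 12 members with the lowest and the 12 with the highest fitted change, with 1 point per RNA sample and the Ye6100 samples drawn left of the S98 samples of each gene; levels of different genes or formats are not comparable. In the left panel the mutants lie below the control of their format for every gene but RSM28, and in the right panel mutant 2 is often the highest Ye6100 sample.

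At the other end of the family 3 members were higher in every mutant, MRP8, MRPL16 and RSM7. Median centring left 0 such members beside 18.6% of all genes, and quantile normalization 1 beside 21.9%. MRP8 is a member by its symbol alone, with no family name in the reference table and no subunit or origin assigned here. Its signal was 449.6 in control 1/2 against 720.2 and 661.6 in mutants 1 and 2. On S98 it was 1104 in control 3 against 1303 in mutant 3. All mutants lay above their controls, and the fitted change of 0.46 ± 0.37 was the highest of the 64. MRPL16, of family uL16m, had signals of 105.9, 172.8 and 166.5 on Ye6100 and 296.4 and 300.4 on S98. The Ye6100 samples were apart by log2 ratios of 0.71 and 0.65, the S98 samples by 0.02, and the fitted change was 0.40 ± 0.35. RSM7 (uS7m) had a fitted change of 0.16 ± 0.37.

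Most of the remaining genes among the 12 highest had their highest ratio in mutant 2. MRPL39 (bL33m), the shortest member, had a signal of 522.7 in control 1/2 against 504.2 and 1328 in mutants 1 and 2, and of 3563 in control 3 against 2391 in mutant 3. Mutant 2 was thus well above its control, at a log2 ratio of 1.34, while mutants 1 and 3 were at -0.05 and -0.58. In the same order of mutants MRP2 (uS14m) was at -0.71, 1.22 and -0.01, and MRPL37 (mL54) -0.51, 1.19 and -0.22. MRPL36 (bL31m) had 0.34, 1.13 and -0.58, MRP21 (bS21m) 0.21, 1.00 and -0.27, MRPL51 (mL43) 0.06, 0.86 and -0.50, and MRPL27 (mL41) 0.11, 0.93 and -0.72. In each of these 7 genes mutant 2 was the highest of the mutants and mutant 3 lay below its control. MRPL44 (mL53), measured by 2 probe sets on each format, had -0.08, 0.27 and -0.14.

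MRP20, of family uL23m at the exit of the peptide tunnel, ran the other way. Its signal was 72.8 in control 1/2 against 90.1 and 29.4 in mutants 1 and 2, and 71.7 in control 3 against 130.5 in mutant 3. Both samples of isolate SCY840 were therefore at opposite ends, with log2 ratios of -1.31 in mutant 2 and 0.86 in mutant 3. The fitted change of these 12 highest members lay between -0.01 and 0.46, and limma's adjusted p ranged from 0.875 to 0.999. Scaling moved the median fitted change of all genes, which was 0.10 as reported, -0.07 with each array centred on its median, 0.01 with quantile normalization and -0.33 without rescaling S98. Members near 0 changed sign along with it: MRP2, MRP20, MRPL37, MRPL39, MRPL51 and RSM7 were below 0 with median centring, MRP20 and MRPL51 also with quantile normalization. Without rescaling S98 these 6 and MRP21, MRPL16 and MRPL36 were below 0.

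The extremes of single mutants named further members. In mutant 1 the lowest ratios belonged to MRPL8, to MRPS5 (uS5m) at -1.01 and to MRPL6. MRPS5 had -0.38 in mutant 2 and -0.11 in mutant 3. In mutant 3 the lowest were MRPL49 (bL21m) at -1.16, RSM26, the other relative of superoxide dismutases in the small subunit, at -1.16, and RSM27 (mS33) at -1.08. For MRPL49 mutants 1 and 2 were at -0.01 and -0.11. For RSM26 they lay on both sides of it, at -0.18 and 0.63, and for RSM27 at -0.75 and 0.92. MRPL1 (uL1m) was 1 of the 3 highest in mutant 3, at 0.30, and had -0.58 in mutant 2.

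**Figure D3:**
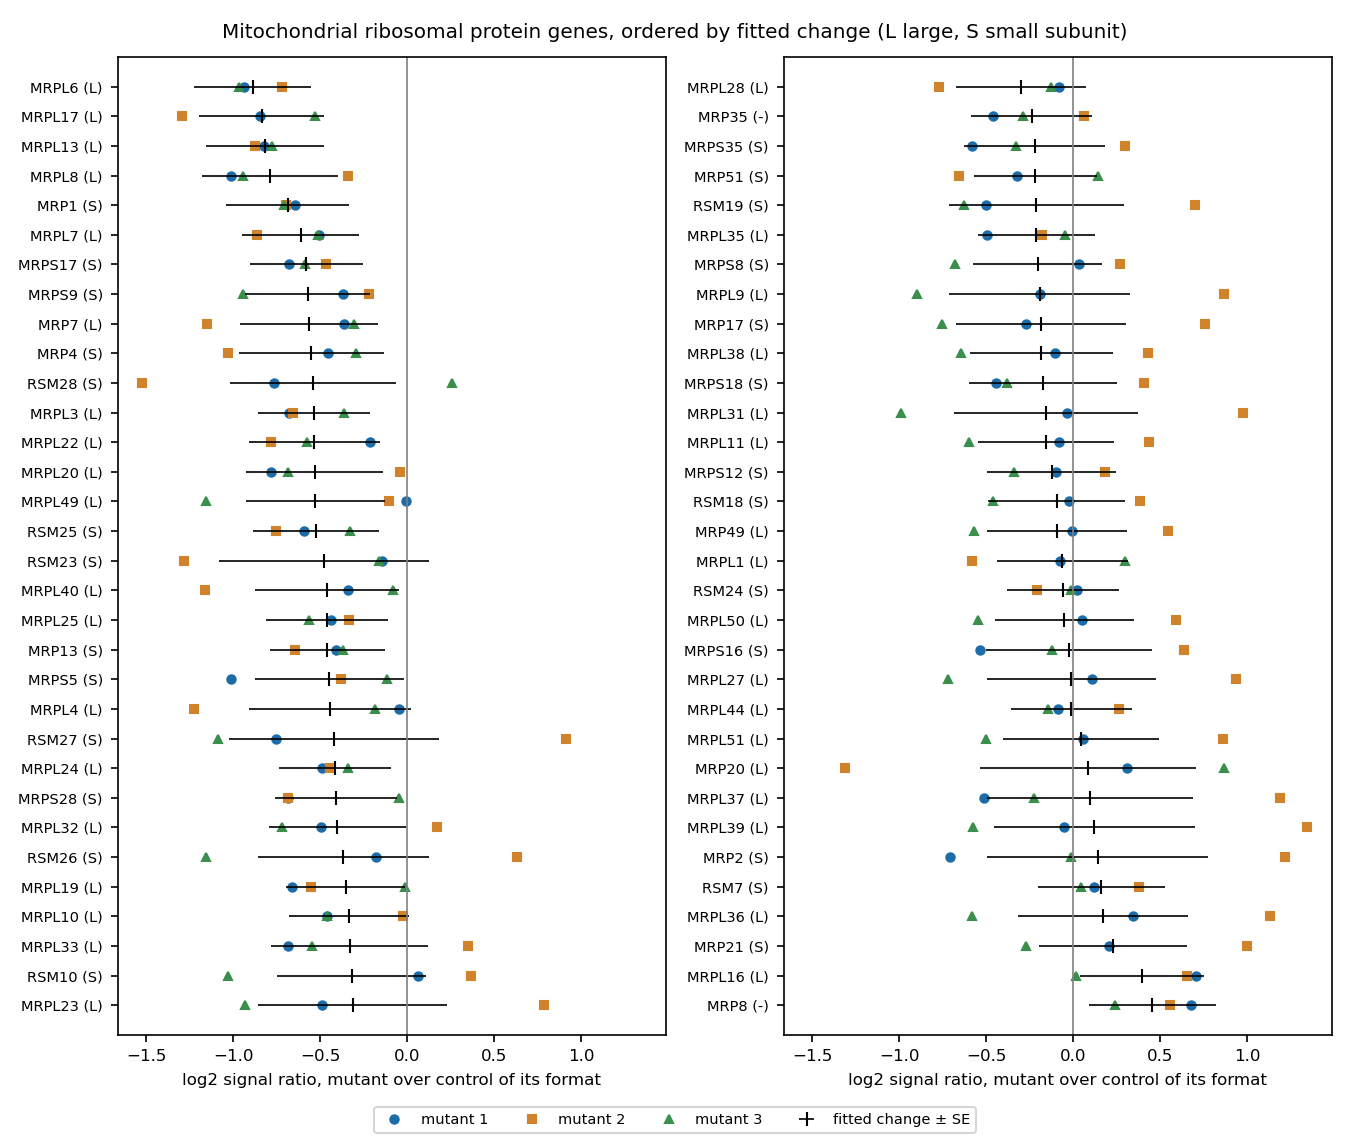
Log2 ratio of mutant over the control of its format (horizontal axis) for each of the 64 tested members, ordered by fitted change from top left to bottom right, with the 3 mutants as coloured points and the fitted change ± SE as a black bar. Points of all mutants lie left of 0 for most genes in the left panel, and in the right panel the orange squares of mutant 2 lie to the right of the other points for most genes.

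The split in mutant 2 followed gene length. The members were divided at their median gene length of 679.5 bases in the reference table, 32 on each side, a division chosen after the data were seen. In mutant 2, 26 of the 32 shorter members were above the control and 26 of the 32 longer members below it, with median log2 ratios of 0.49 and -0.65. Genes outside the family had the same order with a smaller gap between the medians: the median in mutant 2 was 0.57 for 807 genes up to that length and -0.18 for 3416 longer genes, and 26.5% and 57.4% of them were below the control. Across the 64 members the Spearman correlation of log2 ratio with gene length was -0.70 for mutant 2, beside -0.16 and 0.29 for mutants 1 and 3, and across all 4287 genes these values were -0.29, 0.10 and 0.31. These correlations run over genes of the same arrays and are descriptions.

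The lower signals in mutants 1 and 3 were present at both lengths. In mutant 1, 24 of 32 shorter and 28 of 32 longer members were below the control, beside 40.3% and 34.2% of other genes. The members' medians were -0.10 and -0.43, where other genes had 0.13 and 0.27. In mutant 3, 31 of 32 shorter and 26 of 32 longer members were below the control, beside 62.5% and 34.7% of other genes. There the members' medians were -0.57 and -0.33, where other genes had -0.18 and 0.21. Among the Ye6100 samples the 5'/3' ratio was lowest in mutant 2 for ACT1, for SRB4 (0.201, against 0.691 in the control and 0.399 in mutant 1) and for SPT15 (0.370, against 0.563 and 0.603). On S98 mutant 3 had 0.274 against 0.403 for SRB4 and 0.296 against 0.518 for SPT15. The part of RNA integrity or copying length in the members' ratios was not tested.

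**Figure D4:**
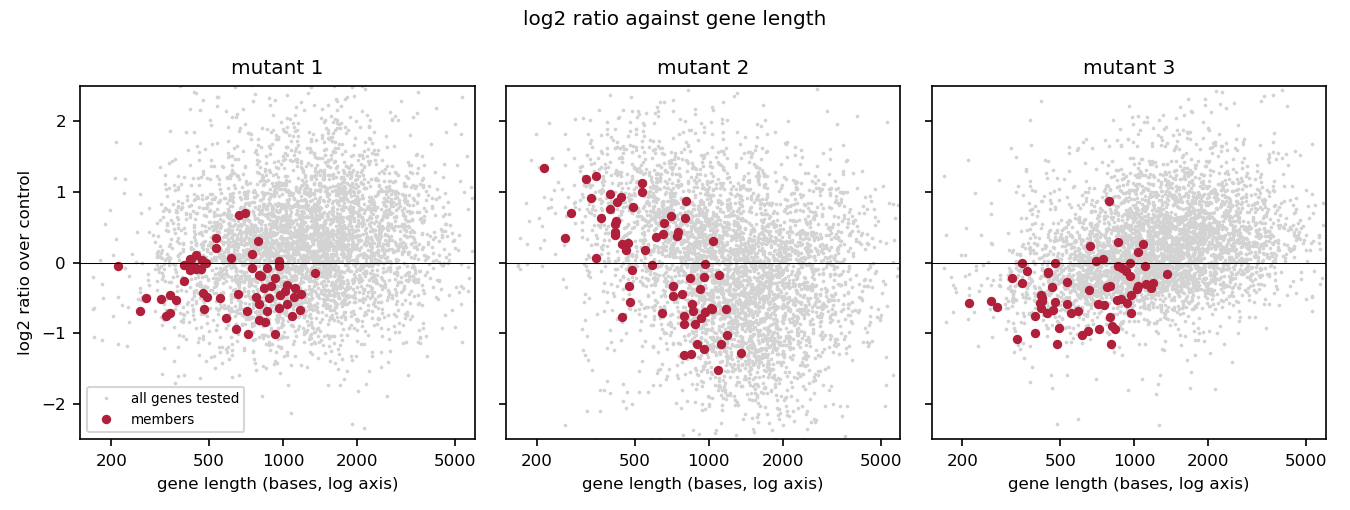
Log2 ratio of mutant over control (vertical axis; the farthest genes lie outside the axes) against gene length in bases (log axis), with members in red and all genes tested in grey and 1 panel per mutant. In mutant 2 the members run from above 0 at short lengths to below 0 at long lengths, with a Spearman correlation of -0.70, beside -0.16 in mutant 1 and 0.29 in mutant 3.

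Without mutant 2 limma called 669 of 4287 genes (15.6%), and 3 of them were members, all lower. This fit has 1 residual degree of freedom and rests on 2 mutants. MRPL6 had a fitted log2 change of -0.95 ± 0.27 with an adjusted p of 0.0256, MRPL8 -0.98 ± 0.27 with 0.0252, and RSM27 -0.92 ± 0.27 with 0.0333. Called lower were 3 of 64 members beside 2.29% of all genes, and called higher 0 members beside 13.3%. At an unadjusted p under 0.05, 13 members were lower beside 6.76% of all genes, and 0 were higher beside 23.8%. RSM27 is 333 bases long and had a log2 ratio of 0.92 in the sample left out. Without mutant 1 limma called 0 members and 0.700% of all genes, and without mutant 3 it called 0 members and 0% of all genes, with 0 members and 1.35% at an unadjusted p under 0.05.

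Both subunits had medians below 0. The median fitted log2 change was -0.32 over 36 tested members of the large subunit and -0.27 over 26 of the small subunit, and 30 and 23 of them had a fitted change below 0, beside 1801 of 4287 genes in all. Without mutant 3 and control 3, which leaves mutants 1 and 2, the medians were -0.29 and -0.06. With MRP35 added the large subunit had -0.31 over 37 genes. In mutant 3 the medians were -0.55 and -0.34, in mutant 1 -0.28 and -0.43, and in mutant 2 -0.07 and 0.23, so the order of the subunits was not the same in the 3 mutants. The large subunit members had a median length of 616.5 bases and the small subunit members 769.5 bases. By origin, as listed by hand, 39 tested members with a bacterial relative had a median fitted change of -0.31 and 22 specific to mitochondria -0.39. Of the former 16 and of the latter 11 were lower in every mutant, beside 14.6% of all genes. That list left 3 tested members unclassed, MRP8, MRP35 and MRP51 (bS1m), and with MRP35 and MRP51 counted by their family names 41 members with a bacterial relative had a median of -0.24.

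Of the 3 members that were not tested, MRPL15 (mL57) and MRP10 (mS37) had a named probe set on S98 alone. The signal of MRPL15 was 425.9 in control 3 and 293.9 in mutant 3, and that of MRP10 was 1073 and 812.5, so both were lower in the mutant, by log2 ratios of -0.54 and -0.40. RSM22, a methyltransferase-like protein linked to the small subunit, lay under the signal filter on Ye6100, with 32.6 in control 1/2 against 22.3 and 15.4 in mutants 1 and 2. On S98 it had 30.8 in control 3 against 43.0 in mutant 3.

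Mitochondrial ribosomal proteins with other symbols had a median fitted change close to that of the members, but a lower median in mutant 2. Of 12 such genes listed 11 were tested, 5 were lower in every mutant, 0 were higher, and the median fitted change was -0.37. Of all genes tested 14.6% were lower and 26.2% higher in every mutant. In mutants 1, 2 and 3 the list had median log2 ratios of -0.41, -0.57 and -0.48, beside -0.37, 0.02 and -0.46 over the members. In mutant 2, 8 of the 11 lay below the control, beside 32 of 64 members and 51.5% of all genes. MHR1, also known for a role in mitochondrial DNA recombination, had -0.74 ± 0.33, MNP1, of the stalk family bL12 in bacteria, -0.63 ± 0.39, and NAM9, the relative of bacterial S4, -0.54 ± 0.36. Among translation factors 5 of 9 were tested, with 1 lower and 0 higher in every mutant and a median of -0.35. Their median log2 ratios in mutants 1, 2 and 3 were -0.11, -1.32 and -0.14, so mutant 2 was the lowest, unlike over all members. The longer members also had their lowest median in mutant 2, with -0.43, -0.65 and -0.33. The median length was 1314 bases for these 5 genes and 679.5 for the members. TUF1, the mitochondrial elongation factor Tu, had signals of 736.6, 392.3 and 269.6 on Ye6100 and 725.2 and 424.3 on S98, and a fitted change of -1.01 ± 0.39. The elongation factor gene MEF1 had log2 ratios of -0.11, -1.94 and 0.21, and its relative MEF2 0.30, -1.32 and -0.14, so both were lowest in mutant 2.

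The other steps of mitochondrial gene expression did not share the members' direction throughout. The counts below stand beside 14.6% of all genes lower and 26.2% higher in every mutant. With so few genes per list they are descriptions. For mitochondrial aminoacyl-tRNA synthetases, which charge the transfer RNAs, 12 of 14 genes were tested, 2 were lower and 1 higher in every mutant, and the median was -0.19. NAM2 had -1.09 ± 0.65, MSK1 -0.71 ± 0.42 and SLM5 0.74 ± 0.47. For activators of single mitochondrial mRNAs 8 of 15 were tested, 0 were lower and 4 higher in every mutant, and the median was 0.34. CBS1 was at 0.82 ± 0.43, PET54 at 0.80 ± 0.45 and MSS51 at -0.45 ± 0.51. In control 1/2 CBS1 had a signal of 18.6, also under that filter. For ribosome assembly and rRNA modification 6 of 8 were tested, 2 lower and 1 higher in every mutant, with a median of 0.01. There MAM33 had -0.72 ± 0.35, MTG1, a GTPase gene, 0.37 ± 0.36 and GEP3 -0.24 ± 0.38. For mitochondrial DNA and transcription 5 of 10 were tested, 1 lower and 1 higher, with a median of -0.03. ABF2, which packages mitochondrial DNA, had 0.64 ± 0.38, the RNA helicase gene MSS116 -0.82 ± 0.38 and MTF1, the mitochondrial transcription factor gene, 0.25 ± 0.37.

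Protein import, on which the members depend to reach the mitochondrion, had a median fitted change of -0.53 over 17 tested genes of 19. Of these 7 were lower and 0 higher in every mutant, where 14.6% and 26.2% of all genes were. TOM20 and TOM70, receptors of the outer membrane, had -0.97 ± 0.38 and -1.01 ± 0.63, and TIM44, of the import motor, -0.76 ± 0.48. For TOM70 and TIM44 mutant 2 was lowest, with log2 ratios of -2.498 and -1.74, beside -0.08 and -0.19 in mutant 3. Nuclear genes for respiratory chain and ATP synthase subunits, whose partners the mitochondrial ribosome makes, had a median of -0.0029 over 28 genes. In every mutant 2 were lower and 3 higher. Their median log2 ratios in mutants 1, 2 and 3 were 0.27, 0.30 and -0.27. Below the control were 7, 11 and 22 of the 28, beside 36.0%, 51.5% and 40.8% of all genes. ATP7 had 0.63 ± 0.40, ATP2 -0.56 ± 0.61 and COX5A -0.45 ± 0.39. For insertion into the inner membrane the median over 6 genes was 0.07, with 0 lower and 2 higher, and MBA1, a ribosome receptor of that membrane, had 0.66 ± 0.35, MDM38 0.42 ± 0.46 and COX18 0.28 ± 0.35. All these genes had limma adjusted p values above 0.05.

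Of regulators 5 of 6 were tested, with a median of 0.15. HAP4, the activating subunit of the factor that turns on respiratory genes, had log2 ratios of 1.62, -1.08 and -0.0047, and its partners HAP3 and HAP5 had fitted changes of 0.41 ± 0.45 and 0.38 ± 0.36. SFP1, a regulator of ribosome synthesis, had log2 ratios of 0.75, -1.47 and 0.10. PUF3, whose protein binds many mRNAs for mitochondrial proteins, among them mRNAs of many members, had signals of 7.8, 0.4 and 0.6 on Ye6100 and 10.3 and 15.3 on S98, all under the signal filter, so no change could be read from it. Products of the mitochondrial genome had probe sets matched on S98 alone, where OLI1, encoding a subunit of the ATP synthase, had signals of 1425 and 827.5 in control 3 and mutant 3. The other 7 such genes, VAR1 for the small subunit's own mitochondrially made protein among them, had signals of at most 80.9 after selection for poly(A) RNA.

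**Figure D5:**
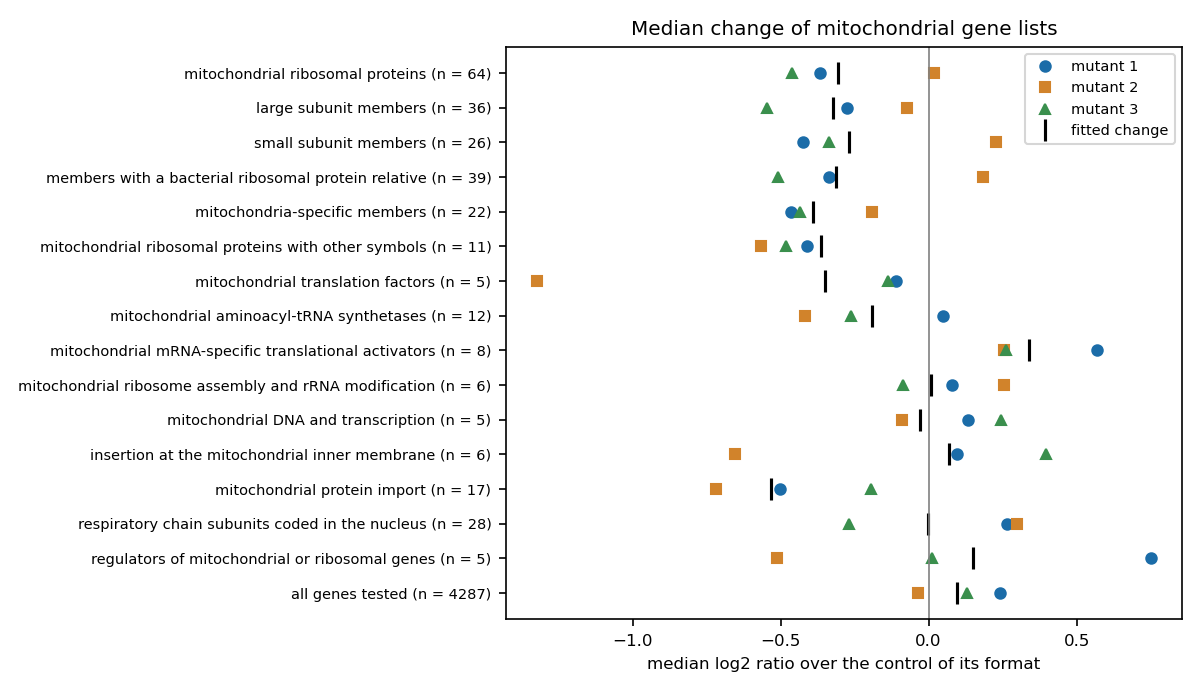
Median log2 ratio over the control of its format (horizontal axis) for the tested members, their subgroups and the other mitochondrial gene lists, with coloured points for the 3 mutants and a black bar for the median fitted change. The rows of ribosomal proteins have bars between -0.39 and -0.27, protein import lies at -0.53, and all 4287 genes tested at 0.10.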

How the data were processed

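Poly(A) RNA was labelled with biotin and hybridised, per the labels' protocols. The deposited values are intensities, 1 linear MAS5 signal per probe set, per the submitters' processing notes, with the 4 chips of a Ye6100 sample joined in 1 column, per the file headers. Neither the MAS5 version and target nor a genome build is given in the sources used here. Control 3 was multiplied by 0.707 and mutant 3 by 1.41, which equalises their 2% trimmed means (500.3 and 250.1). Those of Ye6100 (249.7 to 250.1) were left. Before log2, low signals were raised to their table's 5th percentile (2.4 and 1.98). A gene took its brightest probe set and was tested when its mean exceeded the 25th percentile in both tables (25.4 and 28.1).

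Names came from open reading frames on Ye6100 (5840 of 6421 named probe sets matched the reference table, assembly R64) and from the platform annotation on S98 (6504 probe sets with 1 gene, 328 with several, 2503 with none). Limma 3.58.1 in R 4.3.3 (lmFit, eBayes with a trend, Benjamini-Hochberg) was fitted on genotype over 4287 genes, with array format as a block, leaving 2 residual degrees of freedom. The format is the pairing that the study describes, each mutant with the control of its format. The number of arrays limits the precision. In 10 simulated runs of this fit over 4287 genes with one common variance, true log2 changes of 1, 2 and 3 were called in 25.7%, 95.5% and 100% of the genes given them. Real genes differed in variance, with standard errors of 0.32 to 0.64 among the members, so these shares do not give the power of the real fit. There 0 genes were called, with fitted changes from -3.61 to 5.78.

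The members, lists and rules were chosen with earlier results of these data known. Named were the 12 highest and 12 lowest members, those at an unadjusted p under 0.05, the 3 highest and 3 lowest per mutant, up to 3 genes per other list, and ARV1, PUF3, HAP4 and SFP1. No test was made over the list. Alternatives changed the scaling, the floor, the filter, the choice among probe sets, listed zeros, the block, the trend, the threshold or the samples. The split by gene length, the counts of members lower or higher in both mutants 1 and 3, and the regrouping of MRP35 and MRP51 were added after seeing the data. Gene lengths include introns.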

Additional observations from a re-analysis of the deposited data

Results flagged for a closer look

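For 6 of the named members both Ye6100 mutants lay on one side of their control and the S98 mutant on the other, a difference that was not tested. The mean log2 ratio on Ye6100 minus the ratio on S98 was -1.40 for RSM28 and -0.63 for MRPL1. It was 1.32 for MRPL36, 1.24 for MRPL27, 0.96 for MRPL51 and 0.88 for MRP21. Mutant 1 was close to its control for MRPL27, MRPL51 and MRPL1, with log2 ratios of 0.11, 0.06 and -0.08. The mutants on Ye6100 share 1 control.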

How the results depend on the processing

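The 12 lowest members kept a fitted change below 0 under every alternative run, and over the 29 named members 411 of 458 values kept their direction and side of the threshold. The 12 were picked by that fitted change in these same data. Changes of the floor, the filter, the choice among probe sets or listed zeros left most fitted changes as they were. These counts therefore do not test the direction. Centring each array on its median gave -0.67 as the median log2 ratio of mutant 1, 0 members higher in every mutant (18.6% of all genes), and fitted changes of -0.024 for MRP2, -0.080 for MRP20, -0.068 for MRPL37, -0.042 for MRPL39, -0.12 for MRPL51 and -0.0038 for RSM7. Quantile normalization gave -0.65 for mutant 1, 1 member higher in every mutant, 1 call among all genes, and -0.053 for MRP20 and -0.065 for MRPL51. Without rescaling S98 the median fitted change was -0.74 over the members, -0.75 in the large and -0.70 in the small subunit, mutant 3 had -1.46, 7 genes were called and 0 members were higher in every mutant. There MRP2 had -0.29, MRP20 -0.34, MRP21 -0.20, MRPL16 -0.032, MRPL36 -0.26, MRPL37 -0.33, MRPL39 -0.31, MRPL51 -0.38 and RSM7 -0.27. The median of all genes was 0.10, -0.07 with median centring, 0.01 with quantile normalization and -0.33 without rescaling, and the members' median minus it was -0.40, -0.40, -0.42 and -0.40, a difference that a shift of whole arrays keeps by construction. It was -0.25 without mutant 1, -0.56 without mutant 2, -0.24 without mutant 3 and -0.28 with the filter at the 50th percentile, so leaving out mutant 1 or 3 moved it by over 1.5 times.

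The median of mutant 2 was -0.024 with no filter, 0.37 with a filter at the 50th percentile, 0.49 over shorter and -0.65 over longer members. That filter left 15 members lower in every mutant, of 49 tested, beside 15.7% of 2671 genes. Mutant 1 had -0.10 over shorter members, and 49 members were lower in both mutants 1 and 3. With no replicate block the small subunit had -0.53, MRP2 -0.25, MRP20 -0.042, MRPL36 -0.064, MRPL37 -0.090, MRPL39 -0.22, MRPL51 -0.18 and RSM7 -0.18. Without adjustment of p 281 genes and 1 member passed.

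Leaving out mutant 1 gave 30 calls among all genes and 0 among members, and leaving out mutant 2 gave 669 and 3. A further fit left out mutant 3 together with control 3. Over these fits the median fitted change ranged from -0.37 to -0.16 over the members, -0.37 to -0.23 in the large and -0.38 to -0.06 in the small subunit. Fitted changes ranged from -0.36 to 0.60 for MRP2, -0.50 to 0.59 for MRP20, -0.031 to 0.60 for MRP21, -0.33 to 0.11 for MRPL1, -0.31 to 0.52 for MRPL27, -0.12 to 0.74 for MRPL36 and -0.37 to 0.48 for MRPL37. They ranged from -0.31 to 0.65 for MRPL39, -0.11 to 0.091 for MRPL44, -0.22 to 0.46 for MRPL51, -0.67 to 0.23 for RSM26, -0.92 to 0.081 for RSM27, -0.95 to -0.83 for MRPL6 and -0.98 to -0.64 for MRPL8. Leaving out control 1/2 leaves mutants 1 and 2 without a control of their format. The fitted change would then rest on the S98 pair alone, and this fit was not run. Beyond the change of samples or members itself, the cause of these differences was not tested. With 2 residual degrees of freedom and one common variance the fit called 25.7% of simulated log2 changes of 1. Real genes differed in variance, so that share does not give the power to call the lowest member change of -0.89.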
